A study of Drosophila melanogaster with 12 samples.

Results

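CCHa2, sNPF and ITP are 3 peptide hormone genes of the Drosophila gut that were followed through sorted midgut progenitors with and without knockdown of trithorax (trx), 3 of the 17617 genes in the files. They were chosen from these data as the gut hormones that did not fall with the others in trxRNAi libraries, so their genotype differences are described here without a test. That description held under sucrose, where all 3 stood higher in trxRNAi than in control. It did not hold under dextran sulfate sodium (DSS), where CCHa2 and sNPF were far lower in the libraries labelled trxRNAi and ITP had a difference near 0.

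Peptide hormones of the midgut come mainly from enteroendocrine (EE) cells, which descend from the intestinal stem cells and store the cleaved and amidated peptides in dense core granules. CCHa2 is a nutrient-responsive hormone of gut and fat body that acts through the receptor CCHa2-R on brain cells that make insulin-like peptides. sNPF, the short neuropeptide F precursor, promotes feeding and growth through sNPF-R and is made by many neurons as well as by gut cells. ITP, ion transport peptide, belongs to a family of arthropod hormones that act on salt and water balance, and its gene yields several splice forms.

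The cells were GFP-positive progenitors sorted from guts of mated females that were 3 to 4 days old when moved to 29 °C for 7 days. The esgtsGFP driver, which is active at that temperature in stem cells and enteroblasts, was crossed either to w1118 (control) or to UAS-trxRNAi (BDSC#33703, trxRNAi), so all 4 groups carried the driver. Feed in the final 48 h was 5% sucrose or 3% DSS, a sulfated polysaccharide toxic to the midgut epithelium. The 4 groups, control sucrose, control DSS, trxRNAi sucrose and trxRNAi DSS, held 3 libraries each of 3′ mRNA tags, 12 in all. Whether the replicates are separate pools of flies is not stated in the labels, so p-values measure only the spread between these libraries.

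Values are whole numbers, read here as counts that the authors scaled per library and rounded, with totals from 5362337 to 6520981 per library and 10147 to 11213 genes above 0. The knockdown target trx stood at 1114, 1217 and 1313 in control sucrose and at 668, 667 and 448 in trxRNAi sucrose. Under DSS it stood at 841, 1041 and 652 in control and at 715, 758 and 808 in trxRNAi, a log2 difference of -0.13 ± 0.19 (SE, adjusted p = 0.772), so under DSS the target does not separate the genotype labels and groups are named only as labelled. Of the listed progenitor markers 6 were analysed, and their summed value was 3072 to 5349 over all libraries, with Sox21a, klu and N each at 535 or more in every library. In the same list spdo ran from 13 to 146 and mira from 237 to 1557, and by the test 1 of the 6 (spdo) rose under sucrose and 2 (spdo and mira) fell under DSS, beside 2.36% of all tested genes higher under sucrose and 5.62% lower under DSS. Without overlap, spdo was above control under sucrose and below it under DSS, as CCHa2 was, and the part of progenitor makeup in the hormone results was not tested. Dl, hdc and escargot were not analysed here. In bulk libraries fewer cells of a type and less RNA per cell cannot be told apart, which holds for every value below.

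CCHa2 (FBgn0038147, chromosome 3R, 13389059 to 13395197, minus strand, dm6 coordinates) differed widely between groups. Its scaled values were 186, 163 and 145 in control sucrose, and 1064, 581 and 4385 in control DSS. They were 804, 779 and 1960 in trxRNAi sucrose, and 55, 74 and 82 in trxRNAi DSS. The trxRNAi DSS libraries were the lowest and control sucrose the next, with no overlap between them, while control DSS and trxRNAi sucrose lay above both and overlapped each other. Group means were 70.3 ± 13.9 (SD, n = 3) in trxRNAi DSS, 164.7 ± 20.6 in control sucrose, 1181 ± 675 in trxRNAi sucrose and 2010 ± 2071 in control DSS.

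In log2 (value + 2), trxRNAi minus control for CCHa2 was 2.69 ± 0.67 (SE) under sucrose, 6.47-fold higher. Under DSS it was -4.29 ± 0.67 in the libraries labelled trxRNAi, 19.6-fold lower. Both SEs come from a scatter pooled over all 4 groups, which was unequal for CCHa2. SDs were 0.18 in control sucrose, 0.75 in trxRNAi sucrose, 1.49 in control DSS and 0.29 in trxRNAi DSS. The SE is therefore not the precision of each difference taken alone, which also applies to sNPF and ITP. Without control DSS replicate 3, which held the highest value of CCHa2, the difference under DSS was -3.46. Without trxRNAi sucrose replicate 3 the difference under sucrose was 2.26. The groups compared did not overlap under either feed, so leaving out a library could change the sizes but not the directions. Seen by feed, DSS minus sucrose was 3.07 ± 0.67 in control and -3.91 ± 0.67 in trxRNAi, each sharing its libraries with the genotype differences.

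**Figure D1:**
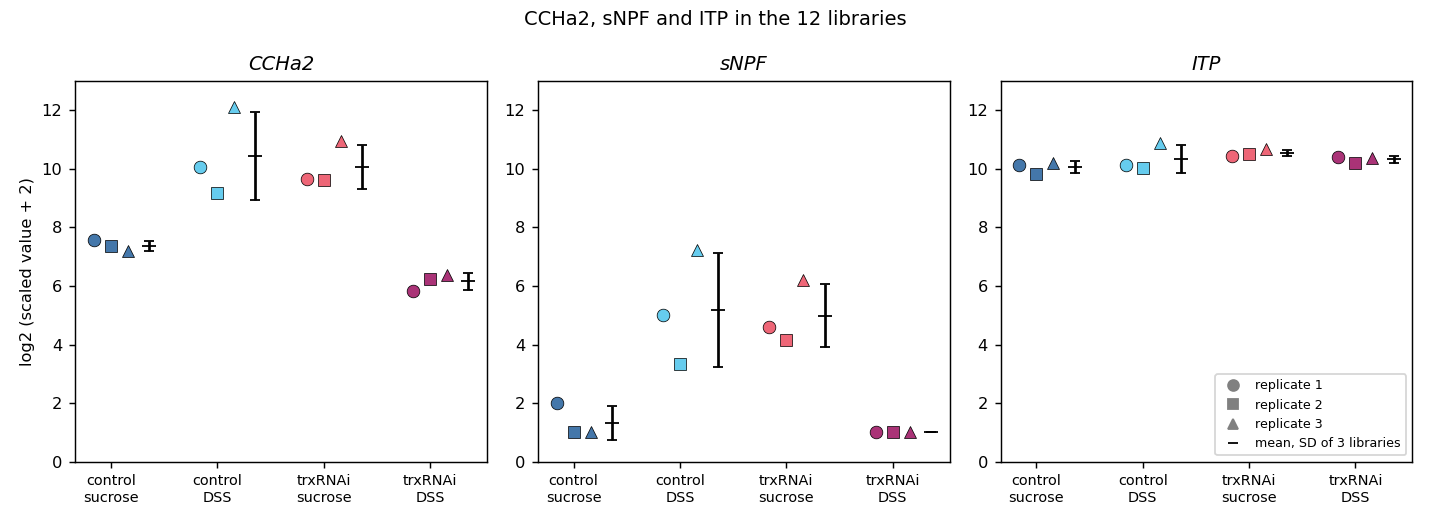
Scaled values of CCHa2, sNPF and ITP as log2 (value + 2) on the vertical axis in the 4 groups on the horizontal axis, 1 symbol per library by replicate number, with the mean and SD of 3 libraries in black. CCHa2 and sNPF are high in control DSS and trxRNAi sucrose and low in the other groups, with replicate 3 highest in both high groups, and ITP lies between 898 and 1901 in all 12 libraries.

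sNPF (FBgn0032840, chromosome 2L, 20027915 to 20056373, plus strand) had the same high and low groups at a far lower level. Unlike those of CCHa2, its low groups overlapped each other. It was listed at 2, 0 and 0 in control sucrose and at 0 in all 3 trxRNAi DSS libraries. Control DSS had values of 30, 8 and 147, and trxRNAi sucrose 22, 16 and 72. Control DSS and trxRNAi sucrose therefore did not overlap the groups at or near 0, and they overlapped each other. It reached 10 in 5 libraries, all of those 2 groups, and so passed the filter on low values through them alone. No fold is given against a group listed at 0. On the log2 (value + 2) scale trxRNAi minus control was 3.65 ± 0.79 (SE) under sucrose and -4.18 ± 0.79 under DSS. That pooled SE covers SDs of 0.58 in control sucrose, 1.08 in trxRNAi sucrose, 1.95 in control DSS and 0 in trxRNAi DSS. The size of both differences followed the pseudocount, with 5.13 and -6.07 at a pseudocount of 0.5 and 2.16 and -2.51 at a pseudocount of 8.

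ITP (FBgn0035023, chromosome 2R, 24537421 to 24558961, plus strand) was abundant and varied less. Its values were 1133, 898 and 1174 in control sucrose and 1116, 1042 and 1901 in control DSS. They were 1398, 1466 and 1627 in trxRNAi sucrose, and 1350, 1174 and 1330 in trxRNAi DSS. Group means ran from 1068 ± 149 (SD, n = 3) in control sucrose through 1285 ± 96.4 in trxRNAi DSS and 1353 ± 476 in control DSS to 1497 ± 118 in trxRNAi sucrose. The trxRNAi sucrose libraries lay above all control sucrose and trxRNAi DSS libraries, and control DSS, with 1 library at 1901, overlapped every other group.

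For ITP, trxRNAi minus control was 0.49 ± 0.20 (SE) on the log2 (value + 2) scale under sucrose, 1.41-fold, and -0.02 ± 0.20 under DSS. The DSS difference turned to 0.25 without control DSS replicate 3. The annotation lists 5 ITP transcripts with 3 distinct 3′ ends spread over 2484 bases, and the values are per gene, so splice forms cannot be told apart. The gene CG4622 overlaps ITP on the opposite strand, and whether the authors' counting used strand is not given in the sources used here. CG4622 itself had values from 50 to 89. No gene in the annotation overlaps CCHa2 or sNPF, apart from transposable elements within sNPF.

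The 3 genes differed in how much their libraries scattered within a group. The pooled SD within groups of log2 (value + 2) was 0.85 for CCHa2, at the 93.2 percentile of the 8399 genes tested. It was 1.15 for sNPF, at the 98.3 percentile, and 0.27 for ITP, at the 32.6 percentile, beside a median of 0.35 over all tested genes. The scatter of CCHa2 lay in the high groups: the coefficient of variation was 103% in control DSS and 57.1% in trxRNAi sucrose, and 12.5% and 19.7% in control sucrose and trxRNAi DSS. Replicate 3 was the highest library of control DSS and of trxRNAi sucrose for each of the 3 genes. Control DSS replicate 3 also had the largest summed value of the EE markers of any library, 13191 beside 8133 and 5747 in the other control DSS libraries.

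Across the 12 libraries CCHa2 and sNPF followed each other closely. Pearson's r of log2 (value + 2) was 0.98 for CCHa2 and sNPF, 0.55 for CCHa2 and ITP, and 0.66 for sNPF and ITP. After subtraction of the group means r was 0.96, 0.82 and 0.82. These values describe libraries that share scaling and group structure. Control DSS replicate 3 and trxRNAi sucrose replicate 3 are the highest points for each pair within their groups. sNPF was at 2 or less in control sucrose and at 0 in trxRNAi DSS, and passed the filter only through the other groups. The r of 0.98 thus reflects in large part the group order of genes chosen on these groups. The r of 0.96 rests mostly on control DSS and trxRNAi sucrose, since sNPF did not vary in trxRNAi DSS.

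The comparison of DSS with sucrose, averaged over both genotypes, is orthogonal to the genotype contrasts on which the 3 genes were chosen. It would be independent of that choice only if all groups scattered alike. They did not: for CCHa2, control DSS libraries had an SD of 1.49 in log2 (value + 2), against 0.29 for trxRNAi DSS libraries. For ITP these SDs were 0.47 and 0.11. The tests of this comparison therefore need not be free of the choice. CCHa2 and ITP did not pass the averaged comparison in limma's test. The averaged log2 difference, DSS minus sucrose, was -0.42 for CCHa2 (95% confidence interval -1.49 to 0.65) and 0.04 for ITP (-0.26 to 0.33), each with an adjusted p of 0.999. For sNPF, which was at or near 0 in 6 of the 12 libraries, it was -0.07, given as a value with no test. Of all 8399 genes 0% passed, 0 by the adjusted p and 247 (2.94%) at an unadjusted p under 0.05. Within control 259 genes passed for DSS against sucrose by limma's adjusted p, and within trxRNAi 298. The average therefore does not show the feed effect of either genotype. An exact permutation test of the feed labels within each genotype, two-sided over 400 arrangements, gave p = 0.715 for CCHa2 and 0.885 for ITP. For CCHa2 the feed differences of opposite sign in control and trxRNAi widen the spread over these arrangements. A large p was therefore likely beforehand, and nothing is read from it. The interval of ITP ends at 0.33, while that of CCHa2 reaches to -1.49 on the log2 scale. For CCHa2 and sNPF the average joins a positive difference in control to a negative one in trxRNAi.

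Those of the other gut hormones that passed the filter went another way under sucrose. Of 9 others in the files 7 passed the filter on low values, 5 of these fell under sucrose and 5 under DSS, and none rose in either. Of all tested genes 4.68% were called under sucrose (2.36% higher and 2.32% lower) and 9.44% under DSS (3.82% higher and 5.62% lower). All 7 lay below control without overlap under both feeds, as 1.85% of tested genes did, with 11.7% under sucrose and 13.3% under DSS. Their fall is what set CCHa2, sNPF and ITP apart, so nothing is read from these counts about the 3 genes. Orcokinin, a peptide precursor of a separate EE class, differed by -3.74 ± 0.31 (SE) under sucrose (adjusted p = 1.32e-05) and by -2.00 ± 0.31 under DSS (adjusted p = 0.0013). AstC, an allatostatin precursor, differed by -3.31 ± 0.21 and -1.38 ± 0.21, and NPF, a feeding-related peptide gene, by -2.75 ± 0.29 and -3.20 ± 0.29, both passing under each feed. AstA (-2.13) and Dh31 (-2.38) fell under sucrose, and their differences of -0.98 and -1.68 under DSS had adjusted p of 0.0726 and 0.0598. The call of Dh31 under sucrose ended without control sucrose replicate 2, trxRNAi sucrose replicate 1 or trxRNAi sucrose replicate 2 (adjusted p = 0.0867, 0.0813 and 0.0763).

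Tk and CCHa1 came closest to CCHa2 among these hormones. Tk, the tachykinin precursor, had a log2 difference of -1.14 ± 0.31 under sucrose (adjusted p = 0.0521) and fell by 3.02 ± 0.31 under DSS (adjusted p = 2.65e-05). CCHa1, whose peptide resembles that of CCHa2, had values of 264, 206 and 344 in control sucrose, 242, 170 and 758 in control DSS, 164, 148 and 161 in trxRNAi sucrose and 100, 52 and 61 in trxRNAi DSS. Its control DSS replicate 3 stood apart as that of CCHa2 did, but its trxRNAi sucrose libraries lay below all control sucrose libraries, where those of CCHa2 lay above. CCHa1 fell by 2.17 ± 0.45 under DSS (adjusted p = 0.0105) and did not pass under sucrose (-0.75, adjusted p = 0.434). Across 12 libraries r with CCHa2 was 0.64 for CCHa1 and 0.61 for Tk, and -0.13 for AstC and for AstA. Mip and CCAP stayed below the filter, at no more than 15 and 8 in any library, and Nplp2 was not analysed here. At these low values their means did not go the way of the 7. In trxRNAi sucrose against control sucrose they were 2.67 against 1 for Mip and 4.67 against 2.33 for CCAP. In trxRNAi DSS against control DSS they were 0 against 10 and 0.67 against 4.

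**Figure D2:**
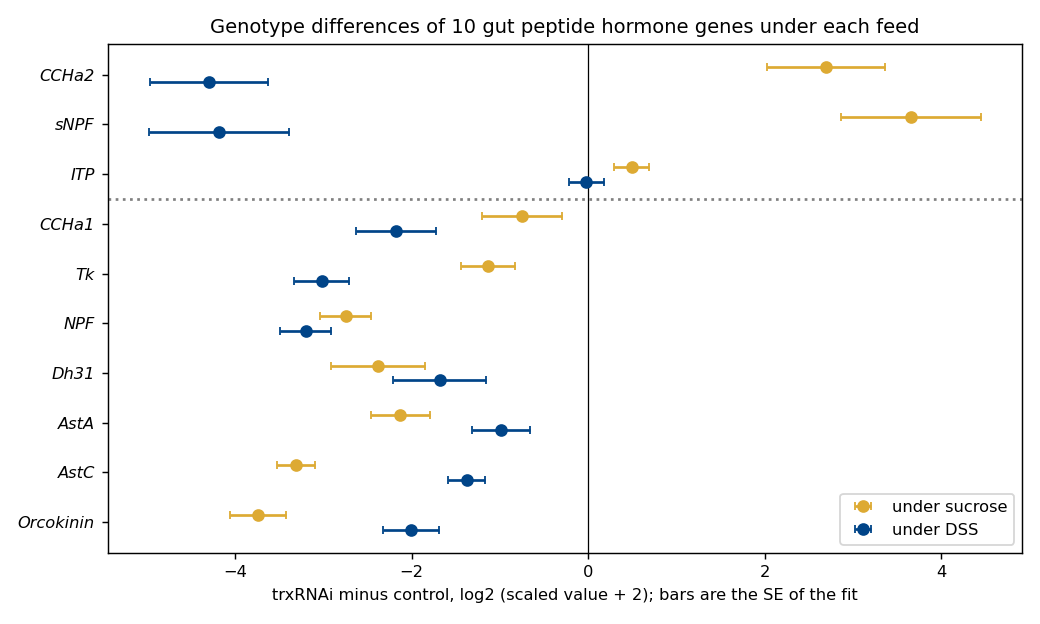
Log2 difference of trxRNAi minus control on the log2 (value + 2) scale, horizontal axis, for 10 hormone genes on the vertical axis, under sucrose in yellow and under DSS in blue, with bars for the SE of the fit. CCHa2 and sNPF stand right of 0 under sucrose (2.69 and 3.65) and left of 0 under DSS (-4.29 and -4.18). ITP stands at 0.49 under sucrose and near 0 under DSS (-0.02). The 7 genes below the dotted line have negative differences under both feeds.

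The group order of CCHa2 and sNPF was shared by a small part of the genes. In 980 genes, 11.7% of those tested, every trxRNAi sucrose library lay above every control sucrose library, and all 3 hormone genes did so. In 1113 genes, 13.3%, every trxRNAi DSS library lay below every control DSS library, as CCHa2 and sNPF did. Both held together for 254 genes, 3.02%, with CCHa2 and sNPF among them. In 320 genes, 3.81%, DSS lay above sucrose in control and below it in trxRNAi without overlap, and 203 genes, 2.42%, met all of these conditions, again with CCHa2 and sNPF. The genotype difference changed between the feeds by limma's test in 8.86% of all tested genes, a contrast not tested for the 3 hormones. Since the genes were chosen on these contrasts, the shares are background only.

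Of 9 genes for EE fate 6 had that same order without overlap, namely pros, phyl, ase, mirr, nvy and sc. By the test, 5 of the 9 rose under sucrose and 1 fell, while 6 fell and none rose under DSS. Of all tested genes 2.36% were higher and 2.32% lower under sucrose, and 3.82% and 5.62% under DSS. The EE determinant pros, a homeodomain factor, had values of 508, 402 and 300 in control sucrose, 891, 553 and 1870 in control DSS, 1021, 853 and 1256 in trxRNAi sucrose and 94, 106 and 104 in trxRNAi DSS. It rose by 1.38 ± 0.35 (SE) under sucrose (adjusted p = 0.0385) and fell by 3.24 ± 0.35 under DSS (adjusted p = 6.37e-05). The call under sucrose was lost without any 1 of 9 libraries, with an adjusted p of up to 0.130. Its r with CCHa2 over 12 libraries was 0.95, and 0.93 after subtraction of group means.

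phyl, an adaptor gene of sensory and EE precursors, rose by 4.13 ± 0.55 under sucrose (adjusted p = 0.00024) and fell by 3.01 ± 0.55 under DSS (adjusted p = 0.00195). tap, a basic helix-loop-helix gene, did not follow the hormones under sucrose (-1.31, adjusted p = 0.0521) and fell by 3.63 ± 0.37 under DSS (adjusted p = 8.58e-06). Ptx1, the homeobox gene named in the series title, went against CCHa2, with values of 218, 176 and 162 in control sucrose, 78, 50 and 33 in control DSS, 13, 15 and 7 in trxRNAi sucrose and 77, 115 and 140 in trxRNAi DSS. It fell by 3.82 ± 0.33 under sucrose (adjusted p = 2.71e-06) and had a difference of 1.06 ± 0.33 under DSS (adjusted p = 0.0567). Its r over 12 libraries was -0.72 with CCHa2, -0.77 with sNPF and -0.67 with ITP.

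**Figure D3:**
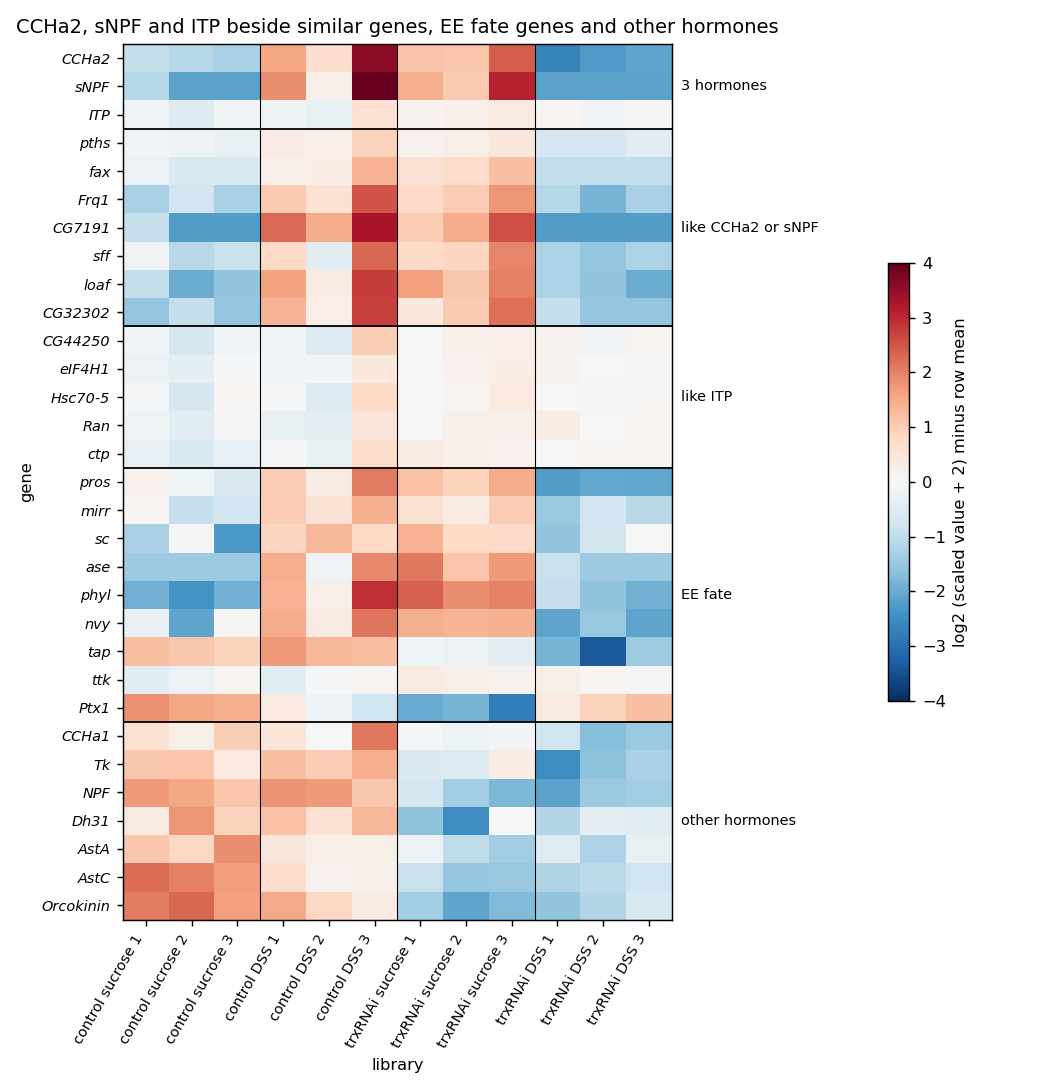
Log2 (value + 2) minus the mean of the row, by colour from blue (low) to red (high), for genes in rows and the 12 libraries in columns. CCHa2 and sNPF are red in control DSS and trxRNAi sucrose and blue elsewhere. The genes pros, phyl, ase, mirr, nvy and sc are mostly red in the same groups and mostly blue elsewhere, with some libraries near the row mean. ITP is pale throughout, and AstC and Orcokinin are red in control sucrose.

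The genes most like each hormone were taken as those with the highest r of log2 (value + 2) over the 12 libraries, 5 for each. For CCHa2 these were pths (r = 0.98), fax (0.97), the calcium sensor gene Frq1 (0.97), CG7191 (0.97) and the kinase gene sff (0.96). For sNPF they were loaf (0.98), sff (0.98), CG7191 (0.97), CG32302 (0.97) and Frq1 (0.97). Of these 5, 3 were also on the list of CCHa2. Shared genes follow from the r of 0.98 between CCHa2 and sNPF and are not a separate result. CG7191 was listed at 3, 0 and 0 in control sucrose, at 43, 24 and 88 in control DSS, at 17, 24 and 54 in trxRNAi sucrose and at 0 in trxRNAi DSS. sff had 70, 29 and 202 in control DSS and 68, 72 and 158 in trxRNAi sucrose, with 35 or less in all libraries of the other groups.

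For ITP the 5 were CG44250 (r = 0.95), the translation factor gene eIF4H1 (0.94), the mitochondrial chaperone gene Hsc70-5 (0.94), the nuclear transport GTPase gene Ran (0.94) and the dynein light chain gene ctp (0.92). None of them is on the lists of CCHa2 or sNPF. Ran had values from 2166 to 3661 in 11 libraries and 4295 in control DSS replicate 3, the library in which ITP was also highest.

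Receptor genes of these hormones had low values in the sorted cells. CCHa2-R was listed at 0 in 11 libraries and at 2 in trxRNAi sucrose replicate 2. sNPF-R ranged from 4 to 24, did not pass under sucrose (-0.11, adjusted p = 0.943), and was lower under DSS by the test (-1.57 ± 0.47, adjusted p = 0.0441), a call that ended in 12 of the alternatives run, with an adjusted p of up to 0.146 without trxRNAi DSS replicate 2. TkR99D and Gyc76C, both reported as receptors for ITP in Drosophila, reached 2 and 12, and Gyc76C did not pass under sucrose (0.62) or DSS (-0.26).

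Of 13 prohormone processing and granule genes 1 rose and 5 fell under sucrose, and 9 fell and none rose under DSS. The shares of all tested genes were 2.36% higher and 2.32% lower under sucrose, and 3.82% higher and 5.62% lower under DSS. 7B2, whose product assists a prohormone convertase, had log2 differences of -1.59 ± 0.25 (SE) under sucrose (adjusted p = 0.000926) and -2.84 ± 0.25 under DSS (adjusted p = 1.80e-06). The granule gene IA-2 had -1.44 ± 0.26 and -3.14 ± 0.26 (adjusted p = 0.00534 and 4.17e-06), and the calcium channel gene cac -3.00 ± 0.27 under DSS (adjusted p = 2.64e-06) and -0.91 under sucrose (adjusted p = 0.0669). The synaptotagmin gene Syt4 was the 1 that rose under sucrose. Like CCHa2 it was high in control DSS and trxRNAi sucrose, but its highest group was trxRNAi sucrose: 7, 6 and 2 in control sucrose, 75, 68 and 103 in control DSS, 104, 115 and 106 in trxRNAi sucrose and 3, 2 and 1 in trxRNAi DSS. Its r with CCHa2 over 12 libraries was 0.92, and 0.32 after subtraction of group means.

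EE markers moved with CCHa2 in part. The summed value of 8 EE markers (pros, nvy, tap, Ptx1, mirr, amon, 7B2 and IA-2, most of it IA-2 and pros) ran from 4540 to 7358 in control sucrose and 5747 to 13191 in control DSS. It ran from 2528 to 3531 in trxRNAi sucrose, where 2 of the 8 rose and 4 fell against control sucrose, and from 900 to 1249 in trxRNAi DSS, where 7 of the 8 fell against control DSS. The shares of all tested genes were 2.36% higher and 2.32% lower under sucrose and 5.62% lower under DSS. Per 1000 of that sum, CCHa2 stood at 25.3, 29.9 and 31.9 in control sucrose and at 131, 101 and 332 in control DSS. It stood at 257, 308 and 555 in trxRNAi sucrose and at 61.1, 67.4 and 65.7 in trxRNAi DSS. On that measure the trxRNAi DSS libraries lay above control sucrose, which reverses their order on the plain values. ITP per 1000 of the EE sum was 154 to 259 in control sucrose, 137 to 181 in control DSS, 446 to 580 in trxRNAi sucrose and 1065 to 1500 in trxRNAi DSS, where the EE sum was lowest.

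**Figure D4:**
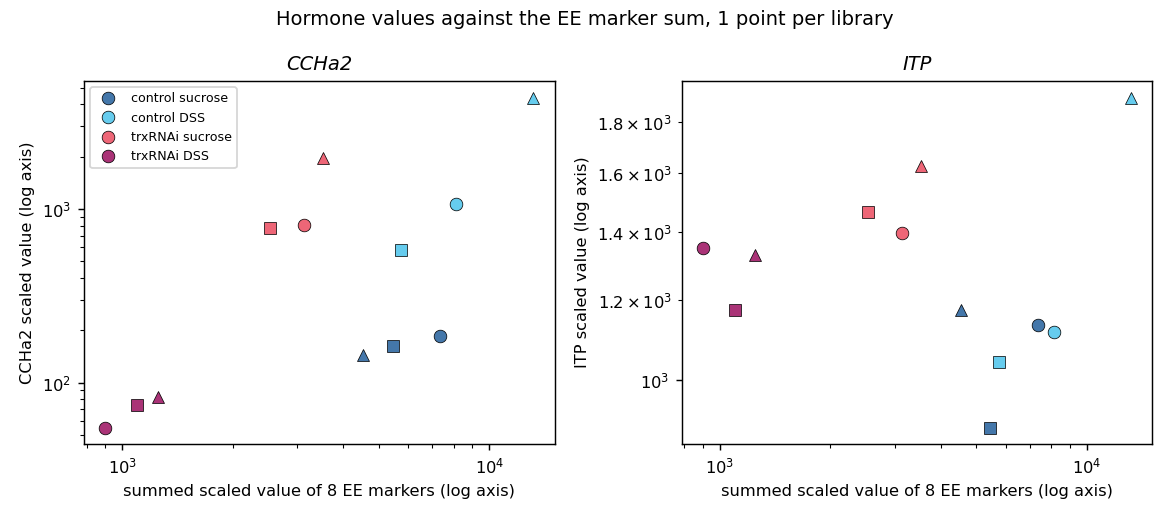
Scaled value of CCHa2 (left) and ITP (right) against the summed scaled value of 8 EE markers, both axes logarithmic, 1 point per library, with colours for the groups and circle, square and triangle for replicates 1, 2 and 3. CCHa2 is higher in trxRNAi sucrose than in control sucrose at a lower EE sum, and ITP lies between 898 and 1901 over an EE sum from 900 to 13191.

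Markers of other cells that could hold these hormones were measured beside them. Of 6 neuronal markers 1 rose under sucrose and 5 fell under DSS, beside 2.36% of all tested genes higher under sucrose and 5.62% lower under DSS. Their sum was 1186 to 1367 in control sucrose, 1448 to 2334 in control DSS, 1240 to 1613 in trxRNAi sucrose and 794 to 1068 in trxRNAi DSS. The neuronal sum was lowest in trxRNAi DSS and highest in control DSS replicate 3, as were CCHa2 and sNPF. Most of the sum came from elav, which by itself overlapped between control DSS (817 to 1257) and trxRNAi DSS (681 to 934). The part of neurons in these results was not tested. Fat body markers, 6 in all, summed to between 12 and 45 in the 12 libraries, with Lsp2, Fbp1 and Yp2 under 10 throughout, and overlapped between all groups. Visceral muscle markers, 8 in all and most of the sum from Mef2, had the same order of groups as the medians of CCHa2, at 388 to 423 in control sucrose, 468 to 619 in control DSS, 432 to 487 in trxRNAi sucrose and 289 to 317 in trxRNAi DSS. None of the 5 muscle markers tested passed under sucrose and 2 fell under DSS. Act57B, Act87E and wupA stayed under 10 in all libraries, and the part of muscle cells in the result was not tested. Hemocyte markers, 4 in all and nearly all of the sum from crq, were lower in control DSS and trxRNAi sucrose, at 910 to 1128, 504 to 671, 586 to 599 and 1132 to 1258 in the same order of groups. The hemocyte marker eater was at 0 in every library, Hml and NimC1 stayed under 10, crq fell under sucrose and rose under DSS, and the part of hemocytes was not tested either. Tracheal markers, 2 in all, summed to between 63 and 98. Enterocyte markers, 9 in all, summed to 2860 to 9254 and overlapped between all groups except trxRNAi DSS and control DSS.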

How the data were processed

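3′ mRNA libraries of sorted progenitors were sequenced in 4 groups of 3, and groups and replicate numbers come from the sample titles. Per the submitters' processing notes the build was dm6, and the tools named, with no role or version, include HISAT2, Bowtie2 and limma. The deposited values are treated as a score: whole numbers for 17617 genes, read here from the values as counts that the authors scaled per library and rounded, a step that the labels do not describe. Among values from 1 to 25, 11 of 12 libraries, all but trxRNAi DSS replicate 1, had an empty class or one raised to over 1.4 times both neighbours, in trxRNAi sucrose replicate 3 and trxRNAi DSS replicate 3 a single raised one. Read depth is therefore not known exactly, and such scaling would hide any difference in total RNA. No pair of libraries held identical values.

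The filter asked for 3 or more libraries with a value of 10 or more and left 8399 genes. They were analysed as log2 (value + 2), a scale that shrinks the changes of low genes. All libraries entered one limma fit (limma 3.58.1, statmod 1.5.0, R 4.3.3) with a mean per group, an intensity trend and robust variance, tested on simulated data. p-values were two-sided and Benjamini-Hochberg adjusted over these 8399 genes at a threshold of 0.05. The averaged feed contrast is orthogonal to both genotype contrasts, which makes it independent of them only with equal variance in all groups. Symbols and positions come from an Ensembl annotation of dm6, and 17520 identifiers matched a symbol. Genes named were the 3 hormones, trx, Ptx1, the other hormones and receptors, up to 4 per list with the smallest genotype p, and 5 most similar genes per hormone. Other genes named with their counts, such as the remaining EE fate genes, were taken after their values were seen. The 3 genes and all lists were chosen with earlier results of these data known. Sequences were not used here.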

Additional observations from a re-analysis of the deposited data

Results flagged for a closer look

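Genotype differences that changed between the feeds drew attention. For CCHa2 and for sNPF every trxRNAi library lay above every control library under sucrose and below every control library under DSS. The genotype difference under DSS minus that under sucrose was -6.98 for CCHa2 and -7.84 for sNPF on the log2 (value + 2) scale, and these differences were not tested because the genes were chosen on them. The limma test of the same quantity is given for trx, Ptx1, the other hormones and receptors past the filter, and the processing and EE fate genes picked by rule. It passed for 12 of these, beside 8.86% of all tested genes, and not for NPF, AstA, Dh31, CCHa1, sNPF-R and Gyc76C. The processing and EE fate genes had the smallest genotype p in these same libraries, so that share is background only. For the remaining genes named this test is not given. Where it passed, the quantity was negative for Syt4 (-8.46), phyl (-7.13), pros (-4.62), tap (-2.33), cac (-2.08), Tk (-1.88), IA-2 (-1.70) and 7B2 (-1.26). It was positive for Ptx1 (4.87), AstC (1.93), Orcokinin (1.73) and trx (0.92). The calls of trx, Orcokinin and 7B2 ended in 11, 10 and 8 of the alternatives run, with an adjusted p of up to 0.139, 0.133 and 0.0915, and that of Tk ended without control DSS replicate 3 and trxRNAi sucrose replicate 3 together (adjusted p = 0.0591).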

How the results depend on the processing

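Leaving out control DSS replicate 3 and trxRNAi sucrose replicate 3 together was chosen after seeing the data. CCHa2 and sNPF kept the direction of both genotype differences in every alternative run. For leaving out libraries this was fixed beforehand, since the groups compared did not overlap. Leaving out 1 library gave 2.26 to 2.92 for CCHa2, 3.04 to 4.06 for sNPF and 0.37 to 0.57 for ITP under sucrose, and -4.92 to -3.46, -5.11 to -3.16 and -0.18 to 0.25 under DSS. For sNPF pseudocounts of 0.5 and 8 gave 5.13 and 2.16 under sucrose and -6.07 and -2.51 under DSS. The ITP difference under DSS turned to 0.25 without both libraries and to 0.04 without trxRNAi DSS replicate 2. The averaged feed difference passed in no alternative for CCHa2 or ITP, and for sNPF it is a value only. Its values without 1 library were -0.83 to -0.10 for CCHa2, -0.58 to 0.39 for sNPF and -0.10 to 0.12 for ITP. It turned to 0.065 for sNPF at a pseudocount of 8, and to 0.10, 0.39 and 0.23 without control sucrose replicate 1, control DSS replicate 2 and trxRNAi sucrose replicate 3. For ITP it turned to -0.02 and -0.10 without control sucrose replicate 2 and control DSS replicate 3, and to -0.07 without both libraries. The cause of these turns was not tested.

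Genes passing numbered 393 under sucrose (183 to 582 without 1 library), 793 under DSS (532 to 930) and 0 for the averaged feed difference (0 to 5, and 2 without both libraries). Rescaling to the mean total gave 278 higher and 150 lower under sucrose in place of 198 and 195, and 200 and 594 under DSS in place of 321 and 472. Values that missed the test changed sign without 1 library for Gyc76C under DSS (-0.51 to 0.074), trx under DSS (-0.30 to 0.036) and sNPF-R under sucrose (-0.40 to 0.29).

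Same-numbered libraries of different groups had deviations from the group means that correlated at -0.20 to 0.28, over 0.1 in 7 of 18 pairs. The main fit did not treat same-numbered libraries as pairs. By the mean r with the libraries of each number in other groups, 10 of 12 libraries correlated best with their own number, a hint from the data and not from the design. With the replicate number as a block 458 genes passed under sucrose, 865 under DSS and 0 for the averaged feed difference. Low values limit sNPF, the receptors, Mip and CCAP.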
